A study of Mus musculus with 16 samples.

Results

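Card14 and Sgsh, and Rac1 and Daglb, are pairs of mouse genes that lie tail to tail on opposite strands, so that the 3′ ends of their transcripts cover the same DNA. The counts of these 4 genes, out of 48440 rows in the table, were followed in bone marrow-derived macrophages. The cells were in the resting (M0) state or after M1-like polarization, each with vehicle or with VLX-1005. VLX-1005 (also called ML355) is an inhibitor of 12-lipoxygenase (12-LOX). The 2 pairs were chosen by the M1 against M0 changes of their rows in these same libraries (a strong fall, or unequal changes of the 2 rows), so the M1 against M0 values of the members are given as a description with no test. The tests on the members concern VLX-1005 against vehicle, which the choice did not use.

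The cells came from female 8-week-old NOD.hALOX12 mice, in which the coding region of human ALOX12 replaces that of mouse Alox15 under the mouse regulatory elements, and all 4 groups shared this genotype. Marrow was grown for 7 days with 10 ng/mL M-CSF, the growth factor that drives macrophage differentiation. Cells were first kept for 1 hour with VLX-1005 at 10 μM or with DMSO at 0.1% (vehicle), and the M1 groups then received lipopolysaccharide at 10 ng/mL together with IFN-γ at 25 ng/mL. The stimulation lasted 18 hours by the methods or 24 hours by the experimental scheme. There were 4 libraries in each of the 4 groups, called M0 vehicle, M1 vehicle, M0 VLX-1005 and M1 VLX-1005. No source states that the 4 libraries of a group came from separate mice, so the p-values below measure the spread between libraries, which may be technical.

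CARD14 is a scaffold protein that joins BCL10 and MALT1 to switch on NF-κB, and is known mainly from keratinocytes of the skin. SGSH is the lysosomal sulfamidase that removes sulfate from heparan sulfate, and its loss causes the storage disease mucopolysaccharidosis type IIIA. RAC1 is a small GTPase that drives membrane ruffling, phagocytosis and migration, and RAC proteins take part in the phagocyte NADPH oxidase. DAGLB is the diacylglycerol lipase that makes 2-arachidonoylglycerol in macrophages, an endocannabinoid and a source of arachidonate for eicosanoid synthesis. A transcript read from one strand is the mirror of one read from the other, so where both genes have exons a read can be given to the right gene only from its strand.

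In the GENCODE M21 annotation of mm10, Card14 (ENSMUSG00000013483.14) lies at chr11:119307768-119345375 on the plus strand and Sgsh (ENSMUSG00000005043.13) at chr11:119343425-119355536 on the minus strand. Their exons overlap over 955 bases, which is 20.7% of the exon bases of Card14 and 21.6% of those of Sgsh. On the transcript Card14-202 the overlap holds 318 coding bases and 637 untranslated bases, and on Sgsh-201 it lies wholly in the 3′ untranslated part of the last exon, which is 3356 bases long. Rac1 (ENSMUSG00000001847.14) lies at chr5:143503634-143528036 on the minus strand and Daglb (ENSMUSG00000039206.13) at chr5:143464584-143505942 on the plus strand. Their exons overlap over 2309 bases, which is 51.4% of the exon bases of Rac1 and 24.1% of those of Daglb, with 3′ untranslated sequence on both sides. The shorter isoform Rac1-202 reaches only 461 bases into Daglb. None of the 4 genes shares exon bases with a gene on its own strand.

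**Figure D1:**
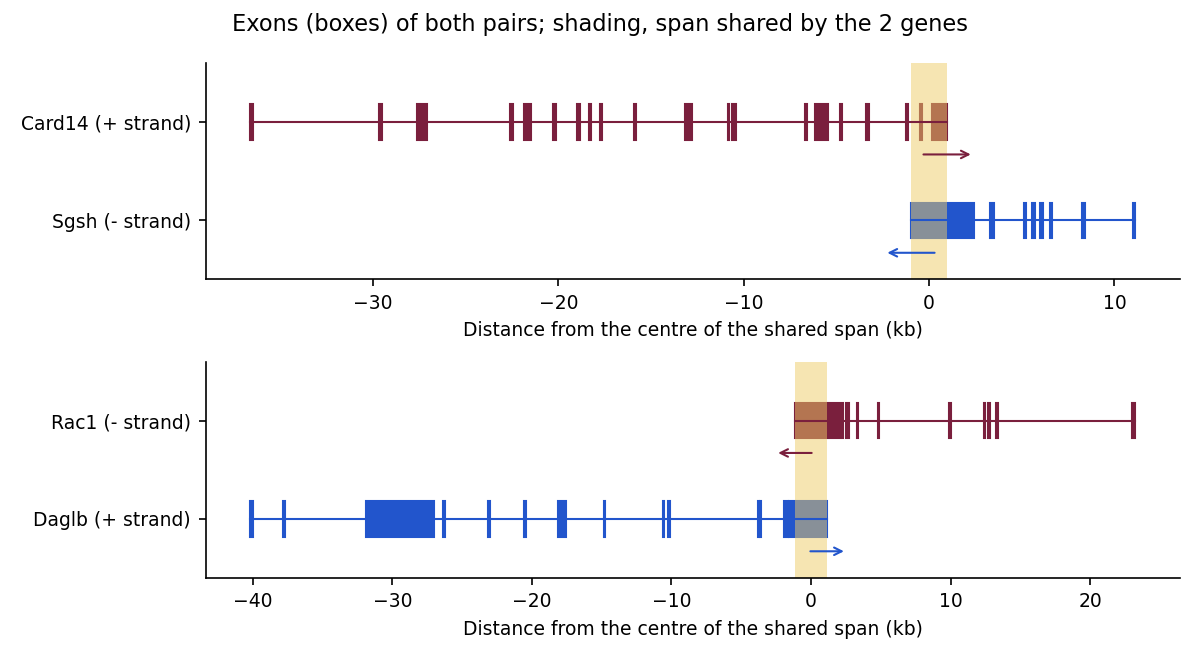
Exons of Card14 and Sgsh (top) and of Rac1 and Daglb (bottom), merged over annotated transcripts, plotted by distance in kb from the centre of the span that both genes cover. Boxes are exons, arrows give the direction of transcription, and the shaded band is the shared span of 1951 bases (Card14 and Sgsh) or 2309 bases (Rac1 and Daglb), which holds the 3′ ends of both genes.

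The sequences at which each transcript enters the overlap show where strand alone separates the rows. Each is 30 bases of the spliced GENCODE M21 transcript, 5′ to 3′, and the capitals mark the bases opposite to an exon of the partner gene.
Card14-202: tccctcatgaatatgAGCACCCACGCCCTG
Sgsh-201: gacacaaacaccgtgTCAAAATGACTCAGT
Rac1-201: tttttgtttttttttGGTAGCTCAGTAGAA
Daglb-201: tttttttttttttttGCTTGTTTTGATTTT
The Card14 window is coding and spans an exon junction, with its capitals at chr11:119343895-119343909. The capitals of the Sgsh window, at chr11:119345361-119345375, are the reverse complement of the last 15 bases of Card14-202. The capitals of the Rac1 window, at chr5:143505928-143505942, are the reverse complement of the last 15 bases of Daglb-201, and those of the Daglb window, at chr5:143503634-143503648, of the last 15 bases of Rac1-201. Read on the strand of the partner, the lower-case bases are those that follow the partner's annotated end. They were A at 14 of 15 positions after Daglb, at 15 of 15 after Rac1 and at 1 of 15 after Card14.

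The libraries held 939584 to 1158095 counts each, with a median of 1078303.5. The first principal component separated M0 from M1 and held 94.8% of the variance, and on the second (0.935%) 3 libraries were set off from the rest of M0 (library 3 of M0 VLX-1005 and libraries 2 and 3 of M0 vehicle). The 8460 rows of genes with exons opposite to those of another gene (17.5% of rows) took 96.3% to 97.2% of each library. Of the mitochondrial counts, 89.2% to 95.8% fell in rows of the light strand, which holds 9 of the annotated mitochondrial rows (24.3%). The libraries were strand-specific, and the strand setting of the counting was not given in the sources used here. Whether a member's row holds RNA of that gene or of its opposite partner was not tested. The values below are therefore those of rows. All 10 macrophage markers had counts, summing to 296 to 414 CPM per library, but the members of this list moved in opposite directions. CPM are counts per 1e+06 of the library size over the rows tested, corrected by the trimmed mean of M-values (TMM). Csf1r had a mean of 206 CPM over the 8 M0 libraries and 217 over the 8 M1 libraries, Adgre1 16.3 and 46.1, and Cd14 2.32 and 22.8, against 84 and 18.7 for Lyz2, 27.8 and 2.12 for Cx3cr1 and 3.71 and 0 for Mrc1. Of the 4 dendritic cell markers Flt3 and Zbtb46 were at 0 in all libraries, Clec9a had 4.19 and 0.703 CPM, and Xcr1 had 1.97 and 207 CPM, so that their sum was 3.40 to 9.13 CPM in M0 and 167 to 260 CPM in M1. Of the epithelial markers Krt10 had 14.8 and 7.45 CPM and Krt5, Krt14 and Epcam were at 0. The 5 neutrophil markers were at 0, the T cell list summed to at most 1.5 CPM, the B cell list to at most 4.38 CPM and the fibroblast list to at most 2.4 CPM per library. The part of these shifts in the M1 against M0 values below was not tested.

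Card14 was the more abundant row of its pair in every library, and its counts were far lower in M1 than in M0. It had 1671, 1727, 1743 and 1588 counts in M0 vehicle libraries 1 to 4 and 1764, 1733, 1662 and 1448 in M0 VLX-1005. It had 58, 66, 70 and 68 counts in M1 vehicle and 67, 88, 81 and 82 in M1 VLX-1005. The M0 and M1 libraries did not overlap. How many of all rows tested had no such overlap is not given here, so for this and the other members it is only a description. By an edgeR model over all rows tested 34.8% were lower and 31.7% higher in M1 with vehicle, and 33.8% lower and 31.5% higher with VLX-1005, so a lower row in M1 was common. In such bulk libraries fewer cells of a type and less RNA per cell cannot be told apart. M1 VLX-1005 1 was the only library of its group within the range of M1 vehicle. The means were 1334 ± 46.6, 1278 ± 37.4, 76.2 ± 4.11 and 93.7 ± 15.2 CPM (SD, n = 4) in the same order of groups, where CPM is scaled to library sizes corrected by the trimmed mean of M-values (TMM). The log2 fold change of M1 against M0 was -4.13 (SE 0.09) with vehicle, a 17.5-fold lower level, and -3.77 (SE 0.09) with VLX-1005, a 13.7-fold lower level. Lower values were found in 77 of the 3453 rows tested (2.23%) with vehicle and in 91 (2.64%) with VLX-1005.

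The Sgsh row was nearly empty. It had 10, 12, 16 and 9 counts in M0 vehicle, 8, 14, 8 and 7 in M0 VLX-1005, 1, 0, 1 and 0 in M1 vehicle, and none in M1 VLX-1005. With 86 counts in all it ranked 3746 of the rows by mean count and did not pass the filter on low counts, so it is the only member that was not tested. Its level was 9.27 ± 2.16 CPM in M0 vehicle and 7.12 ± 2.20 CPM in M0 VLX-1005 (SD, n = 4). The lowest M0 library lay above the highest M1 library, as for Card14. Over the pooled vehicle libraries 47 counts in M0 stood against 2 in M1, a ratio of 16 with an exact 95% counting interval of 4.20 to 136. Over the VLX-1005 libraries 37 counts stood against 0, so that Sgsh was at least 8.16-fold lower in M1, with 3 counts over the group as the floor, and the exact 95% counting interval of the ratio starts at 6.31. Intervals and floors of this kind cover counting error only. A fold change of the size of that of Card14 (17.5) lay within the interval of Sgsh, so at this depth no difference between the 2 rows in the size of the change was detectable.

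Rac1 was low in M1 to nearly the same degree as Card14. It had 1384, 1153, 1432 and 1257 counts in M0 vehicle, 1335, 1205, 1375 and 1129 in M0 VLX-1005, 64, 59, 61 and 51 in M1 vehicle, and 66, 75, 51 and 57 in M1 VLX-1005. M0 and M1 libraries again did not overlap, which is only a description, as for Card14. The vehicle and VLX-1005 libraries overlapped within each state. The means were 1036 ± 92.6, 977 ± 65.0, 68.8 ± 10.7 and 73.2 ± 14.5 CPM (SD, n = 4). The log2 fold change of M1 against M0 was -3.92 (SE 0.12; 15.1-fold lower) with vehicle and -3.74 (SE 0.11; 13.4-fold lower) with VLX-1005.

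Daglb, on the other strand of the same 3′ end, changed far less. It had 2897, 2697, 2698 and 2731 counts in M0 vehicle and 2894, 2690, 2755 and 2549 in M0 VLX-1005. It had 1351, 1289, 1509 and 1398 counts in M1 vehicle and 1574, 1268, 1438 and 1406 in M1 VLX-1005. It ranked 85 of all rows by mean count, the highest of the 4 members. The means were 2187 ± 128, 2110 ± 78.7, 1614 ± 90.9 and 1663 ± 67.8 CPM (SD, n = 4), and the M0 libraries (2001 to 2360 CPM) lay above the M1 libraries (1499 to 1722 CPM). The log2 fold change of M1 against M0 was -0.44 (SE 0.06; 1.36-fold lower) with vehicle and -0.34 (SE 0.06; 1.27-fold lower) with VLX-1005.

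The size of the Daglb change depended on how M0 and M1 libraries were scaled to each other. The TMM factors were 1.156 to 1.199 in M0 and 0.8236 to 0.8689 in M1. With library totals alone, an alternative added after the data were seen, the median row moved from -0.10 to -0.58 on the log2 scale with vehicle and from -0.08 to -0.57 with VLX-1005. The share of called rows that were higher in M1 then fell from 47.6% to 28.0% with vehicle and from 48.3% to 27.3% with VLX-1005. Daglb was 1.89-fold lower with vehicle and 1.79-fold lower with VLX-1005 on that scale. Relative to the median row the log2 change of Daglb was -0.34 with vehicle and -0.27 with VLX-1005 under either scaling. Card14 and Rac1 stayed far below the median row, at -4.61 and -4.40 with vehicle on the scale of library totals. Without the 3 M0 libraries that lay apart, the log2 changes with vehicle were -4.13 for Card14, -3.98 for Rac1 and -0.52 for Daglb.

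**Figure D2:**
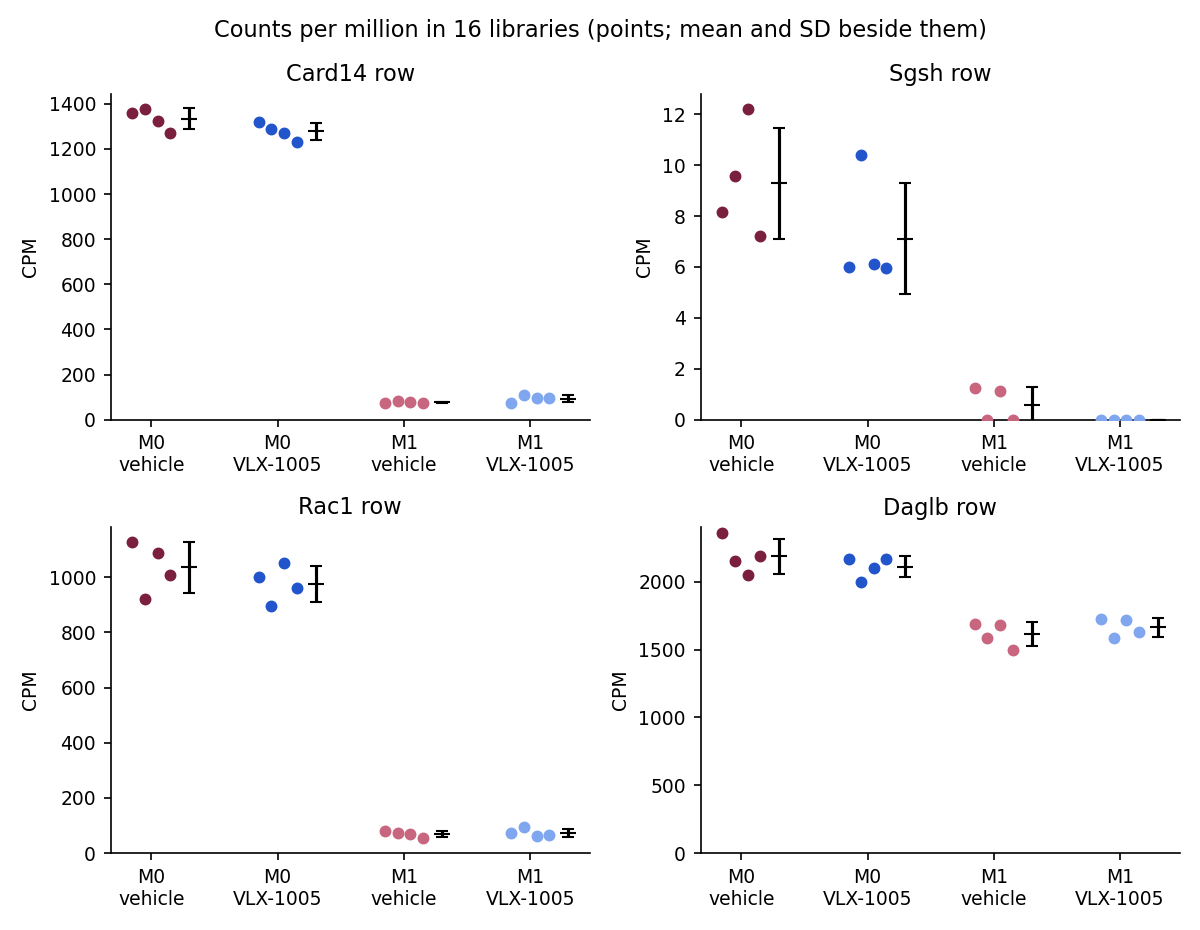
CPM of the Card14, Sgsh, Rac1 and Daglb rows in each of the 16 libraries (points), by group on the x axis, with the mean and SD of 4 libraries beside them; each panel has its own y axis starting at 0. Card14 fell from about 1334 to 76.2 CPM and Rac1 from 1036 to 68.8 CPM between the vehicle groups, while Daglb lay at 2187 and 1614 CPM, and Sgsh did not exceed 12.2 CPM in any library.

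The order of the levels, compared between genes per kb, depended on which exon bases were counted. Per kb of all annotated exon bases, Card14 was highest in M0 vehicle at 290 ± 10.1 CPM per kb, followed by Rac1 at 230 ± 20.6 and Daglb at 229 ± 13.4, which did not differ beyond their spread, and by Sgsh at 2.10 ± 0.489. Of the 9567 exon bases of Daglb, however, many belong to transcripts with retained introns, and its only coding transcript has 4651 bases. Per kb of the longest coding transcript, an alternative added after the data were seen, Daglb was highest in M0 vehicle at 470 ± 27.6 CPM per kb, followed by Card14 at 317 ± 11.1, Rac1 at 249 ± 22.3 and Sgsh at 2.13 ± 0.496. In M1 vehicle Daglb was highest on either measure, at 169 ± 9.50 and 347 ± 19.5 CPM per kb. There Card14 (16.5 ± 0.893 per kb of all exon bases) and Rac1 (15.3 ± 2.37) did not differ beyond their spread, and Sgsh was at 0.134 ± 0.155. With VLX-1005 the levels per kb of all exon bases in M0 were 278 ± 8.11 for Card14, 221 ± 8.22 for Daglb, 217 ± 14.4 for Rac1 and 1.61 ± 0.498 for Sgsh.

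The division of counts within a pair compares its rows in the same library and needs no scaling between libraries. The Rac1 row held 32.3%, 29.9%, 34.7% and 31.5% of the counts of Rac1 and Daglb in M0 vehicle and 31.6%, 30.9%, 33.3% and 30.7% in M0 VLX-1005. It held 4.52%, 4.38%, 3.89% and 3.52% in M1 vehicle and 4.02%, 5.58%, 3.43% and 3.90% in M1 VLX-1005. Every M0 library thus had a several-fold larger Rac1 share than every M1 library, and vehicle and VLX-1005 overlapped within each state. The mean shares were 32.1 ± 1.97% and 31.6 ± 1.17% in M0 and 4.08 ± 0.460% and 4.23 ± 0.937% in M1 (SD, n = 4).

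The Sgsh row held 0.690 ± 0.156% of the counts of Card14 and Sgsh in M0 vehicle and 0.553 ± 0.166% in M0 VLX-1005 (SD, n = 4), with a range of 0.451% to 0.910% over the 8 libraries. In M1 vehicle it held 2 of 264 pooled counts, or 0.758% (95% Wilson interval 0.208 to 2.72%), which includes the M0 shares. In M1 VLX-1005 it held 0 of 318, which allows a share of up to 0.943% with 3 counts as the limit, or 1.19% by the Wilson interval. No change of this share from M0 to M1 was detectable at this depth.

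No difference in the division of a pair between VLX-1005 and vehicle passed the test. The Rac1 share differed by -0.494 percentage points in M0 (VLX-1005 minus vehicle, exact two-sided permutation p = 0.7143) and by 0.156 points in M1 (p = 0.8, exact). The Sgsh share differed by -0.136 points in M0 (p = 0.2571, exact) and by -0.776 points in M1. In M1 only 2 of the 8 libraries had an Sgsh count, both of them vehicle, so the exact p of 0.4286 there is the smallest that these values allow and says nothing about a difference. The p-values adjusted over these 4 tests were all 0.8, and for the other 3 tests the smallest p that 70 labellings of 4 against 4 libraries allow is 0.02857. The sign of the Rac1 difference turned to 0.358 points in M0 without M0 vehicle 3, and in M1 to -0.0292 points without M1 vehicle 4 and to -0.294 points without M1 VLX-1005 2.

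**Figure D3:**
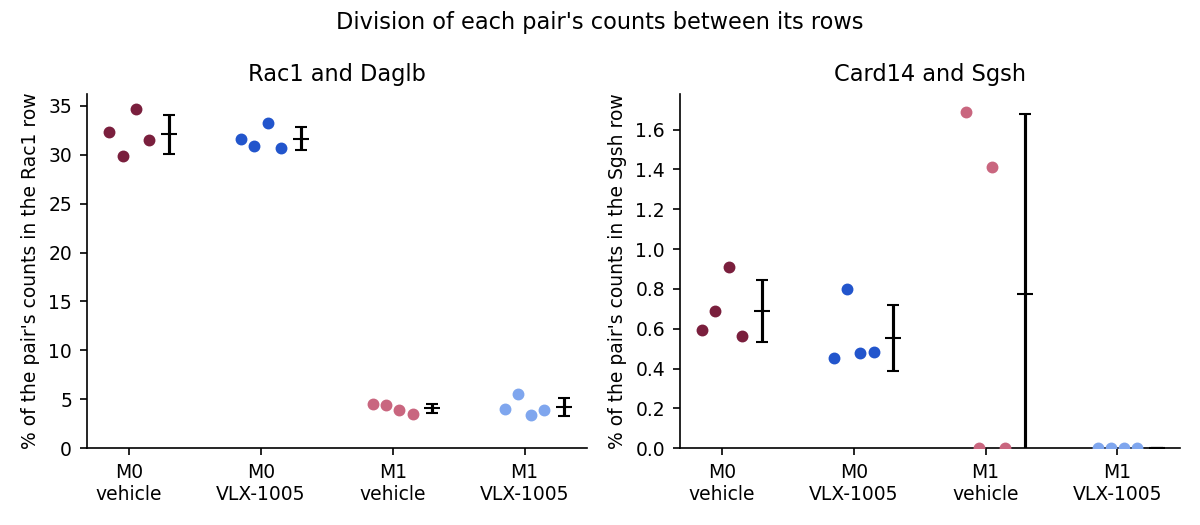
Percent of the counts of Rac1 and Daglb that fell in the Rac1 row (left) and of Card14 and Sgsh that fell in the Sgsh row (right) in each library (points), with the mean and SD of 4 libraries beside them. The Rac1 share lay between 29.9% and 34.7% in M0 and between 3.43% and 5.58% in M1, and the Sgsh share was at most 1.69%.

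Tail-to-tail and other opposite-strand overlaps were common in the table, which allowed the Rac1 and Daglb rows to be placed among other pairs. Both rows were tested in 679 pairs, of which 374 lay tail to tail. The absolute difference of the log2 fold changes of the 2 rows, M1 against M0, had a median of 0.84 with vehicle and 0.88 with VLX-1005, and a 90th percentile of 2.69 and 2.81. For Rac1 and Daglb the difference was 3.48 with vehicle and 3.4 with VLX-1005, and 35 (5.15%) and 33 (4.86%) of the pairs lay above it. Among the tail-to-tail pairs 14 and 15 lay above it. The pair was chosen for this difference, so its place is a description. Exosc9, a subunit of the RNA exosome, and Ccna2, the gene of cyclin A2, differed most with vehicle, by 8.61. Their log2 fold changes were -8.44 and 0.16. Rnf150 and Gm45449 followed at 6.58, and Lrrc39 and Gm42940 at 6.56. Exosc9 and Gm42940 had means of only 24.9 and 8.88 counts, so the sizes of their falls rest on few counts. The pairs next to Rac1 and Daglb were Rnd2 with Vat1 (3.52) and Myef2 with Slc24a5 (3.48) above it, and Akt1s1 with Tbc1d17 (3.46) and Cln3 with Apobr (3.38) below it. In 398 of the 679 pairs (58.6%) with vehicle and 400 (58.9%) with VLX-1005 both rows changed in the same direction, as those of Rac1 and Daglb did.

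**Figure D4:**
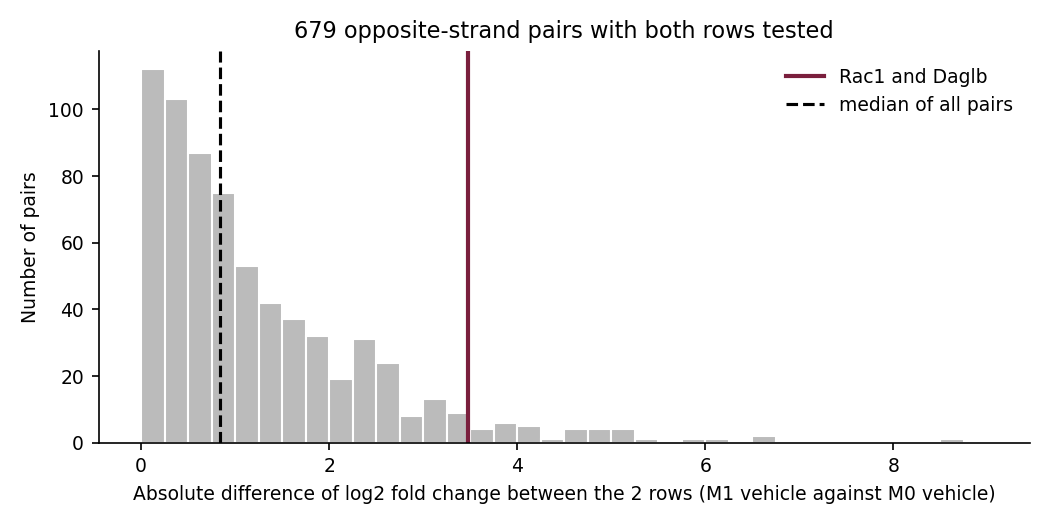
Histogram of the absolute difference between the log2 fold changes (M1 vehicle against M0 vehicle) of the 2 rows of 679 opposite-strand pairs; the y axis counts pairs. The dashed line marks the median of 0.84 and the solid line Rac1 and Daglb at 3.48, with 35 pairs above it.

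The effect of VLX-1005 on the members themselves was small, and none of it passed the test across all rows. In M0 the log2 fold changes of VLX-1005 against vehicle were -0.06 (SE 0.07) for Card14, -0.08 (SE 0.09) for Rac1 and -0.05 (SE 0.06) for Daglb, each with an adjusted p of 1 by edgeR's quasi-likelihood test with Benjamini-Hochberg adjustment. The Sgsh counts in M0 stood in a ratio of 0.769 (VLX-1005 to vehicle, exact counting interval 0.486 to 1.21). In M0 0 of 3453 rows (0%) were called, with 103 at an unadjusted p under 0.05 and 0 called by DESeq2.

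In M1 Card14 had a log2 fold change of 0.29 (SE 0.10, interval of 1.96 SE 0.09 to 0.50) with VLX-1005 against vehicle, the largest of the 3 members tested. Its unadjusted p was 0.0154 and its adjusted p 0.998 by edgeR, so it did not pass, and over 24 alternative settings the adjusted p ranged from 0.614 to 1. Of the 4 VLX-1005 libraries, 3 lay above all M1 vehicle libraries in CPM. Rac1 differed by 0.09 (SE 0.14, interval -0.19 to 0.37) and Daglb by 0.04 (SE 0.06, interval -0.07 to 0.16), each with an adjusted p of 0.998 by edgeR. The Rac1 value was -0.01 without M1 vehicle 4 and -0.04 without M1 VLX-1005 2. In M1 0 of 3453 rows (0%) were called, with 128 at an unadjusted p under 0.05 and 0 called by DESeq2.

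The interaction asks whether the change from M0 to M1 differed with VLX-1005. For Card14 it was 0.36 (SE 0.13, interval 0.11 to 0.60, unadjusted p = 0.0096 and adjusted p = 1 by edgeR), so that the fall was smaller with VLX-1005 but did not pass. It was 0.18 (SE 0.17, interval -0.15 to 0.51) for Rac1 and 0.09 (SE 0.08, interval -0.07 to 0.26) for Daglb, each with an adjusted p of 1 by edgeR. The test called 0 of 3453 rows (0%), with 148 at an unadjusted p under 0.05 and 0 called by DESeq2. Without the 3 M0 libraries that lay apart, the interaction was 0.34 for Card14, 0.27 for Rac1 and 0.16 for Daglb.

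**Figure D5:**
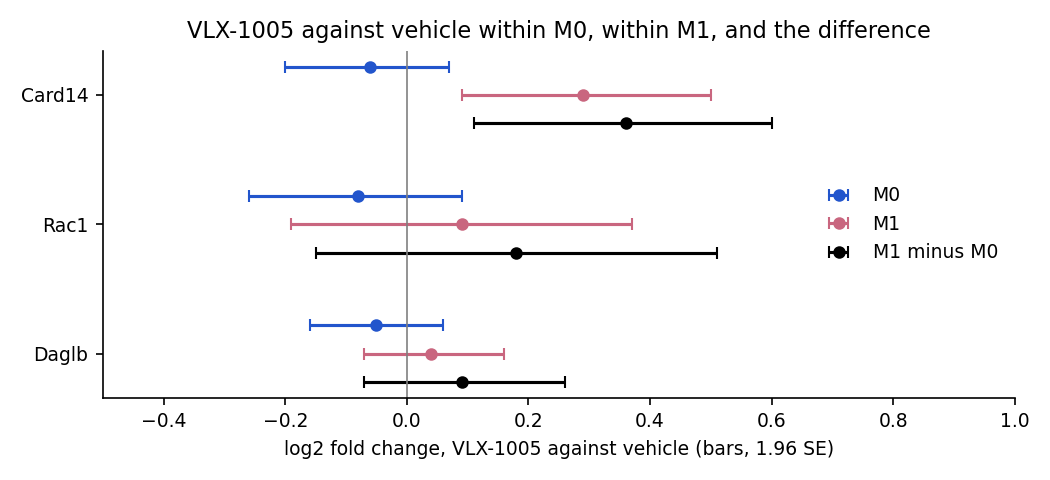
log2 fold change of VLX-1005 against vehicle (x axis) for the Card14, Rac1 and Daglb rows within M0, within M1, and as the difference between both (M1 minus M0); points are edgeR estimates and bars extend 1.96 SE. The Card14 points in M1 (0.29) and for the difference (0.36) have bars that clear 0, without passing the test across all 3453 rows.

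The rows whose profile was most like that of a member were found by the root mean square difference of log2 CPM, each row centred on its own mean, over 16 libraries and 1678 rows with a mean of at least 50 counts. Card14 and Rac1 were each other's nearest row, at 0.198 against a median of 1.99 for Card14 and 1.93 for Rac1 over all rows. Both were chosen by their M1 against M0 changes, so their nearness is a description. Card14 was followed by Gm42846 (0.229), which lies opposite Mxd4, and by Dnah11 (0.241), a dynein heavy chain of cilia, which lies opposite Cdca7l. Rac1 was followed by Gm12353 (0.200), opposite Wwp1, and Gm17233 (0.219), opposite Rcbtb2. The rows nearest to Daglb were Gm10143 (0.0856), opposite Fen1, Limd2 (0.0905), opposite Gm10840, and 2700016F22Rik (0.0905), opposite Emc1. All 9 of these rows, among them the members Card14 and Rac1, have exons opposite to another gene. Rows with such exons held 96.3% to 97.2% of the counts of each library, so this trait is not particular to the 9. M0 and M1 dominate the variation that the measure compares.

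Within 100 kb of each pair 9 rows other than the members had counts, and most were near 0. Beside Rac1 and Daglb no other row reached a mean of 5 counts, and Kdelr2, an endoplasmic reticulum retention receptor expressed in all cells, had 11 counts over all libraries. Beside Card14 and Sgsh, Eif4a3, a core subunit of the exon junction complex, had 7 counts, Gaa, the lysosomal α-glucosidase, had 18, and Slc26a11, which starts just beyond the start of Sgsh, had 4. Kdelr2, Eif4a3, Gaa and Slc26a11 have no exons opposite to another gene. Rows with such exons could be low too, as Tbc1d16 had 8 counts, Grid2ip 3, Gm20635 and Gm43398 2 each and 9530056K15Rik 1. Of the rows without such exons, Mir1932 had 61 counts, Fam220a 28 and Gm42502 23. These rows with few counts were all singled out after their values were seen. Rnf213, an interferon-induced ubiquitin ligase, rose in M1 with a log2 fold change of 2.02 with vehicle (SE 0.41, adjusted p = 0.000194 by edgeR). A930037H05Rik, the row opposite to Rnf213, was at 1790 ± 225 CPM in M0 vehicle and 26011 ± 3582 in M1 vehicle (SD, n = 4), a rise of 3.86 on the log2 scale (SE 0.13, adjusted p = 3.28e-17 by edgeR). With VLX-1005 the log2 fold changes were 2.81 for Rnf213 and 3.80 for A930037H05Rik. The fall of the Card14 row was not shared by Rnf213 and A930037H05Rik, the other rows near it that could be tested.

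Few genes of the pathways of the members could be tested. Their values too are those of rows. Whether a row holds RNA of the named gene or of a gene opposite to it was not tested. Of the CARD, BCL10, MALT1 and NF-κB list 3 of 21 genes were tested and all 3 were higher in M1 under vehicle and under VLX-1005, with a median log2 fold change of 1.43 and 1.63, while 31.7% and 31.5% of all rows tested were higher. DESeq2, and edgeR with no filter on low counts, each called 6 genes of the list higher with vehicle. Ikbkg, which encodes the NEMO subunit of the IκB kinase, rose from 685 ± 65.2 to 1849 ± 30.5 CPM (SD, n = 4), and the G6pdx row opposite to it rose by 2.63 on the log2 scale. Nfkb2, which encodes the p100 precursor, rose by 1.26 (SE 0.19, adjusted p = 4.04e-06 by edgeR) with Psd opposite at 2.59, and Malt1 rose from 0.580 to 12.0 CPM.

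Of the genes for the breakdown of heparan sulfate and other glycosaminoglycans, the pathway of SGSH, 4 of 17 were tested, and 3 fell with vehicle and 2 with VLX-1005, where 34.8% and 33.8% of all rows tested were lower. The count with VLX-1005 was 1 by DESeq2 and without M0 VLX-1005 2, M1 VLX-1005 2 or M1 VLX-1005 4, and 4 with library totals alone. The median log2 fold change was -1.12 and -0.57. Hexa, a subunit of β-hexosaminidase, fell from 32.4 ± 5.29 to 12.3 ± 4.36 CPM with vehicle, and its log2 fold change with VLX-1005 was -0.51 (adjusted p = 0.145 by edgeR) and was called lower with library totals alone (adjusted p = 0.00509 by edgeR). Idua, the α-L-iduronidase, fell by 0.84 on the log2 scale with vehicle and by 0.63 with VLX-1005, and the Dgkq and Slc26a1 rows opposite to it were at -1.08 and -0.49 with vehicle. Gusb, the β-glucuronidase, fell in both. The difference between vehicle and VLX-1005 was not called for any gene of this list.

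Of the Rac regulators, effectors and NADPH oxidase subunits 7 of 26 were tested, and 4 were higher in each treatment, with medians of 1.01 and 0.52, beside 31.7% and 31.5% of all rows tested. With VLX-1005 the count was 2 in a fit of only the groups compared and 1 with no filter on low counts. Cybb, the catalytic oxidase subunit gp91phox, was at 14.4 ± 5.75 CPM in M0 vehicle and 41.3 ± 5.75 in M1 vehicle, a rise of 1.51 on the log2 scale (SE 0.33, adjusted p = 0.000412 by edgeR), and rose by 1.69 with VLX-1005. Ncf1 and Cyba, further oxidase subunits, rose in both treatments, and Abi1, of the WAVE complex, rose with vehicle. Cyfip1, the WAVE subunit that binds active RAC1, was the most abundant, with a log2 fold change of 0.05 with vehicle (adjusted p = 0.51 by edgeR). With VLX-1005 it was called higher at 0.18 (adjusted p = 0.0168 by edgeR), and with library totals alone its value turned to -0.32. On that scale 2 rows of the list were called higher and 1 lower with vehicle, and 1 higher and 1 lower with VLX-1005. The count of rows higher with vehicle was 2 without M0 vehicle 2, without M0 vehicle 4 or without M1 vehicle 3.

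Of the genes of 2-arachidonoylglycerol and arachidonate metabolism 3 of 20 were tested, and 1 was higher and 2 lower in both treatments, beside 31.7% higher and 34.8% lower of all rows tested with vehicle and 31.5% and 33.8% with VLX-1005. With VLX-1005 only 1 was lower by DESeq2 and without M0 VLX-1005 4, M1 VLX-1005 1 or M1 VLX-1005 4. Ptgs2, the inducible cyclooxygenase, had no counts in M0 and 147 in M1 vehicle. With 3 counts over the group as the floor, it was at least 71.8-fold higher, and at least 88.2-fold higher with VLX-1005. These bounds leave out the counting error of the M1 counts. Lipa, the lysosomal acid lipase, fell by 1.75 on the log2 scale with vehicle and by 1.03 with VLX-1005, and Abhd12, a lipase that degrades 2-arachidonoylglycerol, fell from 11.7 to 2.04 CPM. The list medians of -1.75 and -1.03 are those of Lipa and do not depend on the value given to Ptgs2.

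Of the other lysosomal enzymes and membrane proteins 11 of 20 were tested, with a median of -0.22 with vehicle and -0.21 with VLX-1005. Under vehicle 1 was higher and 5 were lower, and under VLX-1005 2 were higher and 5 lower, beside 31.7% higher and 34.8% lower of all rows tested with vehicle and 31.5% and 33.8% with VLX-1005. With VLX-1005 only 3 were lower by DESeq2 or without M0 VLX-1005 1, and 1 was higher by DESeq2 or without M0 VLX-1005 1 or M1 VLX-1005 1. With vehicle 2 were higher without M0 vehicle 1 or M1 vehicle 4. Ctsa, protective protein cathepsin A, fell from 7841 ± 846 to 1420 ± 159 CPM (log2 fold change -2.47), with Pltp (-1.66) and Neurl2 (-1.68) opposite to it. Ctsb, a cysteine protease, fell by 1.45 with Fdft1 at -2.90 opposite, and Ctsz rose by 0.87 with Nelfcd at 0.96 opposite, but with library totals alone 0 rows of this list were called higher in either treatment and 7 and 6 lower. Ctsz was also not called with vehicle without the 3 M0 libraries that lay apart. Man2b1, Ctsl and Ctsd fell in both treatments, Lamp2 rose with VLX-1005, and Ppt1 was at -0.11 (adjusted p = 0.331 by edgeR). Malt1, Gusb, Ncf1, Abi1, Cyba, Abhd12, Man2b1, Ctsl, Ctsd and Lamp2 had means under 20 counts and were named after their values were seen. In none of the 5 lists was a row called in VLX-1005 against vehicle in M0 or M1 or in the interaction.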

How the data were processed

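Raw counts per gene were deposited by the authors for 16 libraries of polyadenylated RNA (strand-specific TruSeq). The study used Galaxy, HISAT2 on mm10 and HTSeq-count, and Trimmomatic, FastQC and DESeq2 stand in the submitters' processing notes. Tool versions, annotation release and strand setting are not given in the sources used here. Samples were grouped by title. Of 48440 rows, 48058 matched GENCODE M21 by ID without version, and the 382 others held 0.47% of all counts. Rows passing filterByExpr (3453) were tested with edgeR 4.0.16 in R 4.3.3 (TMM, quasi-likelihood test on group means over 16 libraries, Benjamini-Hochberg, threshold 0.05), and SE is the log2 fold change divided by the square root of F. The design has no covariate. Shares within pairs were compared by exact permutation of libraries. Alternatives were DESeq2 1.42.0, other scalings and filters, a replicate block and leaving out libraries. Scripts were tested on simulated data. No library repeated another within sampling noise. Exon overlaps came from the annotation.

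The members, gene lists and tests were chosen with earlier results of these data known. The named rows were the 4 members; of each list, up to 4 called rows with the largest change and the 2 most abundant, at a mean of at least 20 counts, with opposite rows; the 3 rows most similar to each member; the 3 most different pairs and the 2 next above and below; and neighbours with a mean of at least 5 counts. Single values of 2 listed genes are not reported here.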

Additional observations from a re-analysis of the deposited data

Results flagged for a closer look

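The Sgsh row in M0 VLX-1005 2 stood apart from the other libraries of its group. It was at 10.4 CPM there, from 14 counts, against 5.95 to 6.11 CPM in the other 3 libraries, and the Sgsh share of the counts of Card14 and Sgsh was 0.801% there, with a 95% Wilson interval of 0.478 to 1.34%. Both gaps passed the 95% critical value of Dixon's test for 4 samples, in 24 groups of values looked at, and chance alone marks about 1 in 20 groups. The 2 values rest on the same 14 counts.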

How the results depend on the processing

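The number of rows called in VLX-1005 against vehicle in M0 was 1 with no filter on low counts. Restricting the test to rows averaging 50 counts or more, 1277 rows were called with vehicle and 1262 with VLX-1005 in M1 against M0, against 2295 and 2254, since fewer rows were tested. Leaving out 1 library at a time, the log2 fold change of Rac1 in M1 (VLX-1005 against vehicle) ranged from -0.04 to 0.17, turning negative at -0.01 and -0.04. The difference of the Rac1 share ranged from -1.22 to 0.358 points in M0 and from -0.294 to 0.425 in M1, turning sign at 0.358, -0.294 and -0.0292. Of 261 alternative values of the members' log2 fold changes 247 stayed as they were, 12 moved, all in M1 against M0, and 2 turned sign. Of 320 alternative counts of called rows in the lists 48 moved.

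The replicate block (the library number as a term) gave 2315 and 2293 called rows in M1 against M0 and 0 in the VLX-1005 comparisons and the interaction, with a log2 fold change of 0.35 for Card14 in the interaction, and changed no call of a member. Libraries with the same number had mean correlations of 0.0474 to 0.111, against -0.0244 for different numbers, and 10 of 16 libraries correlated best with their own number, a hint of a shared origin in the data. Single pairs reached down to -0.17 and no source says what a number marks, so the numbers were not taken as a pairing.

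Depth limits the Sgsh row, whose 86 counts give wide intervals for its change and its share in M1, and the M1 values of Card14 and Rac1, which rest on 51 to 88 counts per library. Counts without molecular identifiers are not independent molecules.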
